A study of Mus musculus with 8 samples.

Results

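The 10 genes described here encode the coat of caveolae (*Cav1*, *Cav2*, *Cavin1*, *Cavin2*, *Ehd2* and *Pacsin2*), the flotillins (*Flot1* and *Flot2*) and 2 endophilins (*Sh3gl1* and *Sh3glb1*). They are 10 of the 31053 genes in the count table, and 10 of 10 passed the filter on low counts, as did 11080 genes in all. They were chosen by name as genes of caveolae and clathrin-independent endocytosis, with their values in KIKO and WT mice already known. Their differences between KIKO and WT mice are therefore given as a description and support nothing. RNA of visceral white adipose tissue (vWAT; the sample titles call the depot epididymal) was sequenced from 4 KIKO and 4 WT mice, with 1 library per mouse. KIKO (knock-in knock-out) mice are a model of Friedreich's ataxia that carries 1 knock-in and 1 knock-out allele, and the WT mice were their littermates. Per the study's methods all were males aged 8 months, and the strain is C57BL/6. Both alleles are present in every tissue of the animal, so no cell type was targeted. Mice fed butyrate were not analysed here.

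Caveolae are small flask-shaped pits of the plasma membrane that are very abundant in adipocytes and endothelial cells. Caveolins insert into the membrane, cavins form the outer coat, EHD2 holds the neck at the cell surface and PACSIN2 bends the membrane. In adipocytes they buffer membrane tension and harbour receptors such as the insulin receptor. Flotillins form separate membrane microdomains, and endophilins bend membrane and recruit dynamin and synaptojanin, which cut off and uncoat endocytic vesicles.

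The total count per library was 2602189 to 3478539, and levels are given in CPM, the reads of a gene scaled to a common library size. All 12 adipocyte markers examined were detected, whereas 6 of 8 epididymis markers were at 0 in every library. The summed level of 10 mural cell markers was 453 to 594 CPM in KIKO and 615 to 675 CPM in WT mice, that of 14 endothelial markers 653 to 1074 CPM in KIKO and 963 to 1330 CPM in WT mice, and that of 11 macrophage markers 2110 to 2642 CPM in KIKO and 1766 to 1980 CPM in WT mice. The sum of 8 fibroblast and progenitor markers was 3165 to 3742 CPM in KIKO and 2603 to 2994 CPM in WT mice. Their median log2 fold change was 0.11, with 2 higher and 1 lower at an unadjusted edgeR p under 0.05. This sum is not read as a shift of these 8 markers as a whole. The sum of 12 adipocyte markers was 59691 to 75692 CPM in KIKO and 48289 to 59762 CPM in WT mice. In each library the largest part of the adipocyte sum was *Cfd*. Its level was 21070.9 to 42446.5 CPM in KIKO and 16643.4 to 21581.9 CPM in WT mice. *Lpl*, *Cidec*, *Retn* and *Plin4* had log2 fold changes below 0 (-0.27, -0.24, -0.10 and -0.03), and the other adipocyte markers above 0. The adipocyte sum is therefore not read as a shift of these markers as a whole. The part of the differences in marker sums in the results below was not tested. In bulk tissue fewer cells of a type and less RNA per cell cannot be told apart. WT mouse 3 stood with the KIKO group on principal component 1 (-24.0 to -4.04 in KIKO mice, and -12.6 in WT mouse 3 against 8.43 to 38.6 in the other WT mice).

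The promoters of *Sh3gl1* and *Flot2*, the members that differed between genotypes, are shown beside those of the neighbouring genes *Cav1* and *Cav2*, which did not pass the test. RefSeq windows of GRCm38.p6, from 250 bases before to 50 bases after each gene's start, were found for 9 of the 10 members, with none for *Flot1*. Capitals mark the letters GGGCGG (a GC box) and CCGGAAGT (an ETS motif) on either strand, and each sequence runs 5′ to 3′ on the gene's strand.
Sh3gl1 promoter, chr17:56036588-56036887, minus strand: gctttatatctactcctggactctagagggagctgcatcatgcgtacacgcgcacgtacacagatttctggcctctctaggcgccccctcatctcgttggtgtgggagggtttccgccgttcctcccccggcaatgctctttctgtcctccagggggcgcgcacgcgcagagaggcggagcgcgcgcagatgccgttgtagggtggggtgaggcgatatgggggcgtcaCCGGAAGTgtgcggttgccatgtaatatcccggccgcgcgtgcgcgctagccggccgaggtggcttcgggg
Flot2 promoter, chr11:78037681-78037980, plus strand: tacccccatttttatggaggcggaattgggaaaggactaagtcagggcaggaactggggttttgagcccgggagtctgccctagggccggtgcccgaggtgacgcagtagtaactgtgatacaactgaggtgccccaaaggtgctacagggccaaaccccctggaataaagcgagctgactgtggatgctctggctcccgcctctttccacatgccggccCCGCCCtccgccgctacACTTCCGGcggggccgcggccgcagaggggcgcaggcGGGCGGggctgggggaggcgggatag
Cav1 promoter, chr6:17306085-17306384, plus strand: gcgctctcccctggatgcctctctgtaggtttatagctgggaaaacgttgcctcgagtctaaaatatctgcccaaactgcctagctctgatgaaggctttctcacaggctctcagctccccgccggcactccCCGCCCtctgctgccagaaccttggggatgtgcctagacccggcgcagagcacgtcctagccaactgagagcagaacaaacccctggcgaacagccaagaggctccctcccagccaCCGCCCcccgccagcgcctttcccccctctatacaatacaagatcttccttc
Cav2 promoter, chr6:17280935-17281234, plus strand: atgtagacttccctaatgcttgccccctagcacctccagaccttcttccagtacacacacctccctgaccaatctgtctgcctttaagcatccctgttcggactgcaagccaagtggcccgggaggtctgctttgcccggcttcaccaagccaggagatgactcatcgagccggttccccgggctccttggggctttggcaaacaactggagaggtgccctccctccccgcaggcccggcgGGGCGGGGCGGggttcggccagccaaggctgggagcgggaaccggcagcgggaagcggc
The letters CCGGAAGT were found once in the *Sh3gl1* and once in the *Flot2* window, and in 0 of the other 7 members' windows. Over all 32851 windows of the same length, 3.89% held them. This motif was picked after the sequences were seen, and a match is a description of the letters. GC boxes were found in the windows of 7 of the 9 members, with 2 each in *Flot2*, *Cav1* and *Cav2* and none in *Sh3gl1* and *Cavin2*, against 35.7% of all windows. In *Cav2* the 2 boxes overlap by 1 base. The windows of *Sh3gl1*, *Flot2*, *Cav1* and *Cav2* held 31, 20, 13 and 16 CpG dinucleotides, against a median of 7 over all windows. Those of *Sh3glb1* and *Pacsin2*, which did not pass the test, held 29 and 27, and the *Cavin2* window held 4.

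In vWAT of KIKO mice, *Sh3gl1* (endophilin A2) and *Flot2* were lower than in WT mice, whereas the 6 genes of the caveolar coat, *Flot1* and *Sh3glb1* did not pass the test. In edgeR's quasi-likelihood test, with Benjamini-Hochberg adjustment over all 11080 genes, 2 of 10 members passed at an adjusted p under 0.05, both lower. Over all tested genes, 0.397% were called lower and 0.677% were called in either direction. At an unadjusted p under 0.05, 0 members were higher and the same 2 were lower, against 7.13% higher and 9.06% lower of all tested genes. DESeq2 called 0 members higher and the same 2 lower, against 2.03% higher and 1.9% lower of the 6616 genes for which it gave an adjusted p. The groups did not overlap for *Sh3gl1* and *Flot2*, against 8.45% of all tested genes. The median log2 fold change of the members was 0.00, against -0.01 over all tested genes. Since the members were chosen with this contrast known, these shares are given side by side and nothing is read from them.

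**Figure D1:**
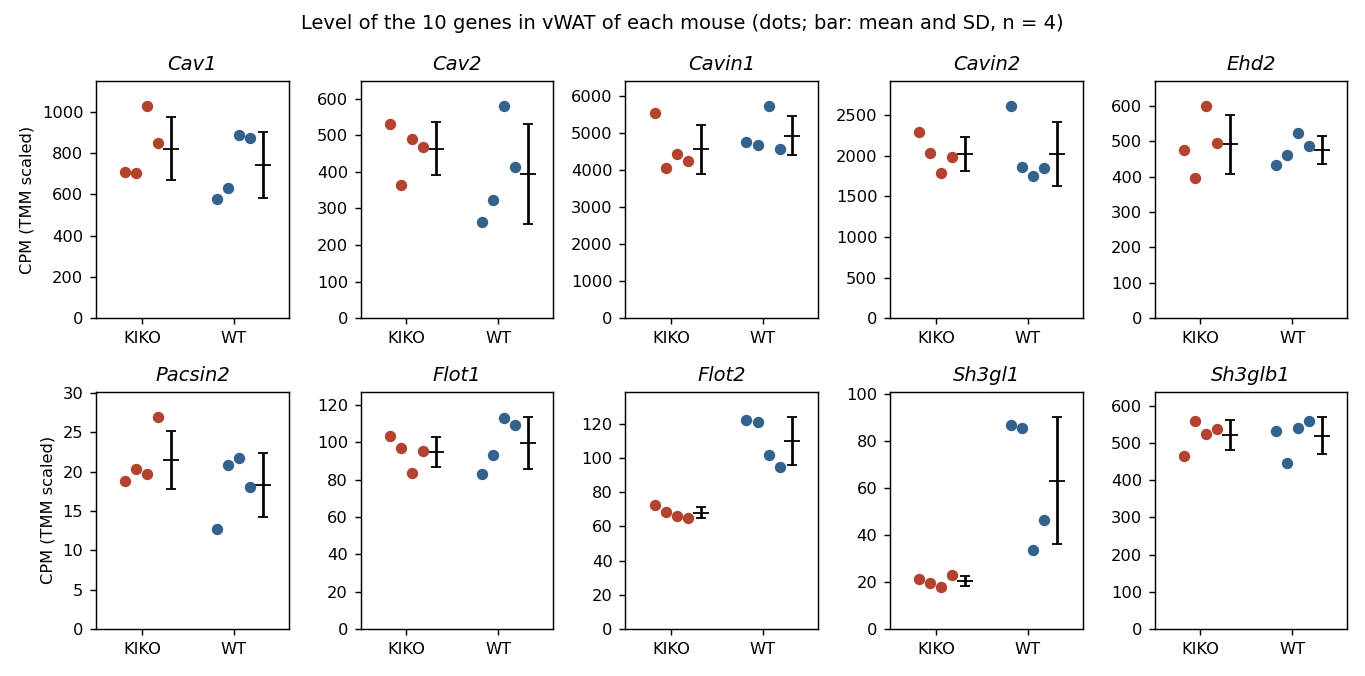
Level of each of the 10 genes in CPM scaled by TMM (y axis, from 0) in vWAT of the 4 KIKO mice (red, left) and the 4 WT mice (blue, right). Dots are mice 1 to 4 from left to right and bars are the mean and SD. Only in the *Flot2* and *Sh3gl1* panels do the KIKO dots (65.0 to 72.6 and 17.8 to 22.8 CPM) lie below every WT dot (94.8 to 122 and 33.8 to 86.9 CPM).

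*Sh3gl1* (ENSMUSG00000003200, chromosome 17 of GRCm38 from 56016750 to 56036635, minus strand) encodes endophilin A2, the broadly expressed endophilin that bends membrane and recruits dynamin. Its level in KIKO mice 1 to 4 was 21.5, 19.6, 17.8 and 22.8 CPM, against 86.9, 85.4, 33.8 and 46.2 CPM in WT mice 1 to 4. Every KIKO mouse was below every WT mouse, and the WT mice fell into a high pair (mice 1 and 2) and a lower pair (mice 3 and 4). *Sh3gl1* thus averaged 20.4 ± 2.19 CPM in KIKO and 63.1 ± 27.1 CPM in WT mice (mean ± SD, n = 4 each). Its log2 fold change was -1.63 (SE 0.26, 95% interval -2.18 to -1.07, edgeR adjusted p = 0.0255). The level of *Sh3gl1* fell by 67.6% on the fitted scale, and the gene ranked 6 by p among all those tested. The spread was uneven, with a coefficient of variation of 10.7% in KIKO and 43.0% in WT mice. These levels rest on 49 to 78 reads per library in KIKO and 101 to 282 reads in WT mice. WT mouse 3, which stood with the KIKO group on principal component 1, had the lowest *Sh3gl1* level of the WT mice, still above the highest KIKO value of 22.8 CPM. *Sh3gl1* was not called without KIKO mouse 1, 3 or 4 or without WT mouse 2 or 4 (adjusted p = 0.0891, 0.0513, 0.145, 0.102 and 0.0794), with log2 fold changes of -1.83 to -1.43 when any 1 mouse was left out. The end of *Sh3gl1* overlaps the protein-coding gene *Mpnd* on the opposite strand by 41 bp, and *Mpnd* had a log2 fold change of 0.05 (SE 0.17, edgeR adjusted p = 0.910).

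*Sh3glb1* (ENSMUSG00000037062, chromosome 3 from 144683678 to 144720335, minus strand) encodes endophilin B1, which acts on intracellular membranes, among them those of mitochondria and autophagosomes. Its level was 464, 559, 525 and 538 CPM in KIKO mice, against 532, 446, 540 and 559 CPM in WT mice. The groups overlapped nearly whole, and the log2 fold change was 0.01 (95% interval -0.25 to 0.27, edgeR adjusted p = 0.987). The reads of *Sh3gl1* were 4.62%, 3.5%, 3.40% and 4.25% of those of *Sh3glb1* in KIKO mice, against 16.3%, 19.1%, 6.26% and 8.27% in WT mice. This ratio within a library does not depend on the scaling between libraries, and it was lower in each KIKO mouse than in each WT mouse.

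*Flot2* (ENSMUSG00000061981, chromosome 11 from 78037931 to 78060434, plus strand) encodes flotillin 2, which pairs with flotillin 1 to build flotillin microdomains. Its level was 72.6, 68.7, 66.1 and 65.0 CPM in KIKO mice 1 to 4, against 122, 121, 102 and 94.8 CPM in WT mice 1 to 4. The groups did not overlap, and the KIKO mice lay close together. *Flot2* averaged 68.1 ± 3.38 CPM in KIKO and 110.2 ± 13.9 CPM in WT mice (mean ± SD, n = 4 each). Its log2 fold change was -0.69 (SE 0.12, 95% interval -0.96 to -0.43, edgeR adjusted p = 0.0326). *Flot2* fell by 38.2% on the fitted scale and ranked 13 by p. *Flot2* was not called without KIKO mouse 1, 2, 3 or 4 or without WT mouse 2 or 4 (adjusted p = 0.0984, 0.0513, 0.0614, 0.159, 0.103 and 0.0971), with log2 fold changes of -0.76 to -0.64 over all 8 omissions.

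*Flot1* (ENSMUSG00000059714, chromosome 17 from 35823230 to 35832791, plus strand), the partner of *Flot2*, stood at 103, 96.7, 83.6 and 95.2 CPM in KIKO mice and at 83.1, 93.3, 113 and 109 CPM in WT mice. The groups overlapped, and the log2 fold change was -0.07 (95% interval -0.35 to 0.21, edgeR adjusted p = 0.827). The interval leaves out a fall of the size of that of *Flot2*. The ratio of *Flot2* to *Flot1* reads was 0.703, 0.711, 0.791 and 0.683 in KIKO mice, against 1.47, 1.3, 0.905 and 0.868 in WT mice. This ratio did not overlap between genotypes.

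*Cav1* (ENSMUSG00000007655, chromosome 6 from 17306335 to 17341452, plus strand) encodes caveolin 1, without which non-muscle cells form no caveolae. Its level was 706, 703, 1025 and 847 CPM in KIKO mice, against 578, 631, 887 and 870 CPM in WT mice. KIKO mice 3 and 4 and WT mice 3 and 4 were above the others of their genotype, and the groups overlapped. The log2 fold change of *Cav1* was 0.15 (SE 0.17, 95% interval -0.21 to 0.51, edgeR adjusted p = 0.712). *Cav2* (ENSMUSG00000000058, from 17281185 to 17289115 on the same strand, 17219 bp before *Cav1*) encodes caveolin 2, which assembles with caveolin 1. *Cav2* had 531, 363, 491 and 468 CPM in KIKO mice, against 264, 324, 579 and 413 CPM in WT mice. Its spread was wider in WT mice, with a coefficient of variation of 15.5% in KIKO and 34.7% in WT mice, and its log2 fold change was 0.23 (95% interval -0.20 to 0.66, edgeR adjusted p = 0.612). The ratio of *Cav1* to *Cav2* reads overlapped between genotypes, at 1.33 to 2.09 in KIKO and 1.53 to 2.19 in WT mice. An antisense gene that spans both caveolins, *Gm15581*, had 0 counts.

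*Cavin1* (ENSMUSG00000004044, chromosome 11 from 100956733 to 100970887, minus strand), the cavin required for caveolae to form, was the most highly counted member. It had 5542, 4070, 4441 and 4245 CPM in KIKO mice, against 4760, 4678, 5726 and 4575 CPM in WT mice. The log2 fold change of *Cavin1* was -0.11 (95% interval -0.43 to 0.21, edgeR adjusted p = 0.758), with KIKO mouse 1 and WT mouse 3 above the rest. *Cavin2* (ENSMUSG00000045954, chromosome 1 from 51289126 to 51302960, plus strand), a cavin that shapes the coat and is prominent in endothelium, had 2297, 2027, 1782 and 1978 CPM in KIKO mice, against 2605, 1863, 1755 and 1843 CPM in WT mice. KIKO mouse 1 and WT mouse 1 were the highest of their genotype, and the log2 fold change was 0.00 (95% interval -0.32 to 0.33, edgeR adjusted p = 0.996).

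*Ehd2* (ENSMUSG00000074364, chromosome 7 from 15946958 to 15967567, minus strand), the ATPase at the neck of caveolae, had 476, 396, 599 and 496 CPM in KIKO mice, against 433, 460, 524 and 488 CPM in WT mice. KIKO mouse 3 and WT mouse 3 were the highest of their genotype, and the log2 fold change was 0.05 (95% interval -0.24 to 0.34, edgeR adjusted p = 0.899). *Pacsin2* (ENSMUSG00000016664, chromosome 15 from 83375607 to 83464606, minus strand), an F-BAR protein that bends the caveolar membrane, had 18.8, 20.4, 19.8 and 26.9 CPM in KIKO mice, against 12.7, 20.9, 21.8 and 18.1 CPM in WT mice. Its groups overlapped, and the log2 fold change was 0.23 (95% interval -0.19 to 0.65, edgeR adjusted p = 0.599). The 95% intervals of the 6 coat genes ran from -0.43 to 0.66 on the log2 scale, so a fall as large as that of *Sh3gl1* lay outside each of them. The signs of *Cavin2*, *Ehd2* and *Sh3glb1* turned under some settings without a call.

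**Figure D2:**
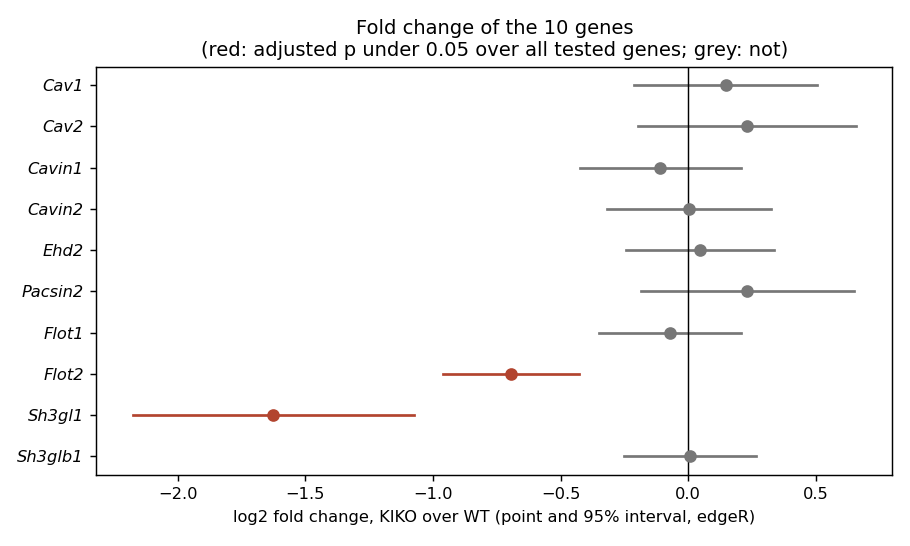
Log2 fold change of KIKO over WT mice (x axis) for the 10 genes, as points with 95% intervals from edgeR. Red marks the 2 genes with an adjusted p under 0.05, *Flot2* at -0.69 and *Sh3gl1* at -1.63; the 8 grey intervals cross 0.

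Read per length, in CPM per kb of exon, the mean level over the 8 libraries was highest for *Cavin1* (1326), followed by *Cavin2* (661), *Cav1* (227), *Cav2* (129), *Ehd2* (94.5) and *Sh3glb1* (69.7). *Flot1* and *Flot2* lay next to each other at 33.6 and 32.5 CPM per kb, and *Sh3gl1* (8.33) and *Pacsin2* (4.06) were lowest. A level per length holds only if reads covered whole transcripts. Libraries came from a TruSeq stranded kit per the study's methods but from a Digital mRNA-seq service per the labels, so that the order per length depends on which was used. By CPM alone, *Cavin1*, *Cavin2* and *Cav1* lay above 99.8%, 99.7% and 98.9% of the tested genes, and *Pacsin2* above 44.0%.

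The libraries also differed in how gene level went with transcript length, and *Sh3gl1* moved with this measure in WT mice but not in KIKO mice. Across tested genes, the Spearman's rho of a gene's level, relative to its mean over the libraries, with its transcript length was -0.137, -0.140, -0.0570 and -0.167 in KIKO mice 1 to 4, against 0.231, 0.221, -0.107 and 0.0955 in WT mice 1 to 4. The genes behind each rho are not independent of each other. WT mice 1 and 2, with the highest rho, had the highest *Sh3gl1* and *Flot2* levels. Among KIKO mice, *Sh3gl1* was highest (22.8 CPM) in mouse 4, with the lowest rho, and lowest (17.8 CPM) in mouse 3, with the highest rho. As deviations from the genotype means over the 8 libraries, log2 *Sh3gl1* correlated with this rho at r = 0.84, and 4.08% of tested genes had an r as high. The same r was 0.61 for *Flot2* (16.3% of tested genes as high), -0.82 for *Flot1* (5.22% as low) and -0.80 for *Cav2* (5.95% as low). Among KIKO mice 1 to 4, *Flot2* (72.6, 68.7, 66.1 and 65.0 CPM) did not rise with rho. *Cav2* (531, 363, 491 and 468 CPM) did not fall with it. The r of *Sh3gl1*, *Flot2* and *Cav2* with rho thus do not describe both genotypes. The mitochondrially encoded share of counts was 9.93% to 10.6% in KIKO and 6.91% to 10.7% in WT mice. Its within-genotype r was -0.75 with *Sh3gl1* (8.21% as low) and -0.55 with *Flot2* (20.4% as low). With *Flot1* it was 0.85 (4.13% as high), and with *Cav2* 0.87 (3.16% as high). Among KIKO mice, mouse 1 had the highest share and the highest *Flot2*, and mouse 3 the lowest share and the lowest *Sh3gl1*. Neither negative r with this share thus describes both genotypes. With an offset for transcript length and GC content per library, an alternative added after the data were examined, *Sh3gl1* had a log2 fold change of -1.61 (edgeR adjusted p = 0.0352) and *Flot2* of -0.65 (edgeR adjusted p = 0.0352). Without the offset these were -1.63 and -0.69.

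**Figure D3:**
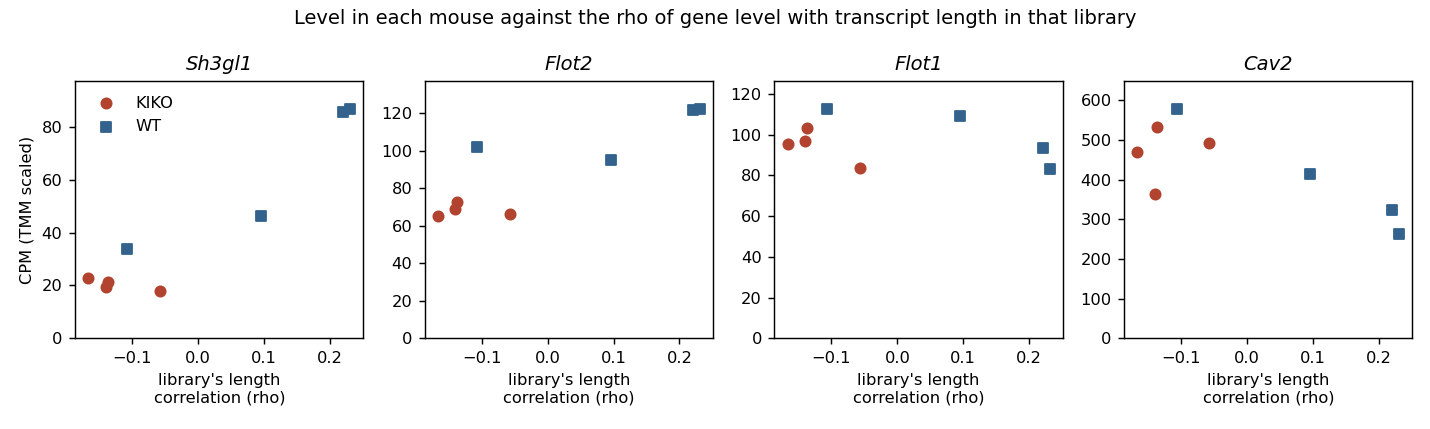
Level in CPM (y axis, from 0) of *Sh3gl1*, *Flot2*, *Flot1* and *Cav2* in each KIKO mouse (red circles) and WT mouse (blue squares), against the Spearman's rho of gene level with transcript length in that library (x axis). The KIKO mice lie at a rho of -0.167 to -0.0570 and the WT mice at -0.107 to 0.231, and *Sh3gl1* is highest in the 2 WT mice with the highest rho.

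Among the 45 pairs of members, several varied together from mouse to mouse within a genotype. Of the coat genes, *Cav1* and *Ehd2* correlated at r = 0.83 and *Cav1* and *Cav2* at r = 0.73, as deviations from the genotype means of log2 CPM over 8 libraries. Other genes reached such values. For *Cav1* and *Ehd2*, 2.15% of tested genes had an r as high with *Cav1* and 1.62% with *Ehd2*. For *Cav1* and *Cav2*, 4.84% had an r as high with *Cav1* and 9.20% with *Cav2*. *Sh3gl1* and *Flot2* correlated at r = 0.80, with 3.96% of tested genes as high with *Sh3gl1* and 1.89% with *Flot2*. WT mice 1 and 2 were highest for both genes. Among KIKO mice, however, mouse 4 had the highest *Sh3gl1* (22.8 CPM) and the lowest *Flot2* (65.0 CPM), so this r does not describe both genotypes. A negative r of -0.85 was found for *Cav1* and *Flot2* (1.44% of tested genes as low with *Cav1*, 0.948% with *Flot2*). For *Cav1* and *Cavin2* it was -0.79 (3.61% as low with *Cav1*, 3.45% with *Cavin2*). *Cav2* and *Sh3gl1* stood at r = -0.82 (5.08% as low with *Cav2*, 3.51% with *Sh3gl1*). Among KIKO mice 1 to 4, however, *Cav2* (531, 363, 491 and 468 CPM) did not fall as *Sh3gl1* (21.5, 19.6, 17.8 and 22.8 CPM) rose. The r of *Cav2* and *Sh3gl1* thus does not describe both genotypes. *Flot1* and *Flot2* stood at r = -0.58, and 16.9% of tested genes were as low with *Flot1* and 10.9% with *Flot2*. *Ehd2* ran against the summed level of 9 mesothelial markers (r = -0.98), and 0.0181% of tested genes had an r as low. That sum was 324 to 621 CPM in KIKO and 295 to 430 CPM in WT mice. It is named because it was the most extreme r of any member with a marker sum or library measure. *Ehd2* also stood at r = -0.85 with the fibroblast and progenitor sum and r = -0.85 with a sum of 7 lymphocyte markers. *Cav1* stood at r = -0.85 with the mesothelial sum. These are descriptions over 8 libraries that share depth, length trend and tissue makeup, and no test was made.

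**Figure D4:**
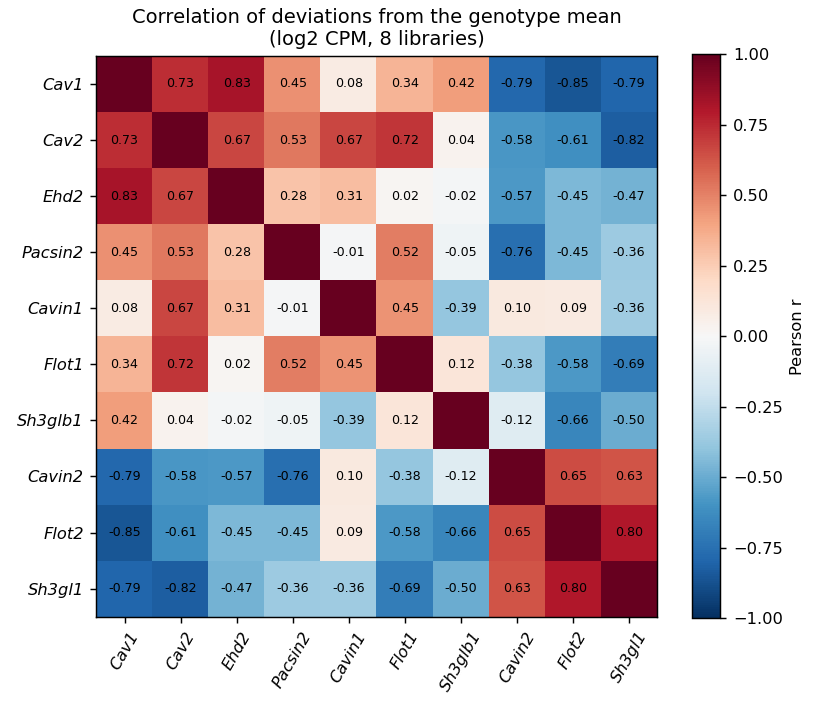
Pearson r (colour and number) of the deviations from the genotype mean of log2 CPM for each pair of the 10 genes over 8 libraries. *Cav1*, *Cav2* and *Ehd2* form a block with r of 0.67 to 0.83, and *Flot2* and *Sh3gl1* (r = 0.80) run against *Cav1* (r = -0.85 and -0.79).

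Over the 8 libraries, the genes outside the list with a pattern most like that of *Sh3gl1* were *Gm20696* (r = 0.99), *Macf1* (r = 0.99), *Flywch1*, *9930021J03Rik* and *Neurl4* (each r = 0.98), with 0.95 to 0.97 within genotypes. Those most like *Cav1* were *Pdcd6* (r = 0.97), *Akirin1*, *Opa3*, *Ppp2r5b* and *Vac14*, with 0.95 to 0.97 within genotypes. Pearson's r was taken on log2 CPM, and the 5 highest of all tested genes are named for each.

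Of 66 other genes of these pathways in 5 lists, 58 were tested, and 1 passed, against 0.677% of all tested genes. That gene was *Dab2* (ENSMUSG00000022150), a cargo adaptor of clathrin-coated pits. *Dab2* had 129, 115, 143 and 119 CPM in KIKO mice, against 84.6, 88.4, 82.0 and 81.7 CPM in WT mice. The groups did not overlap, and *Dab2* rose in KIKO mice with a log2 fold change of 0.58 (SE 0.12, edgeR adjusted p = 0.0415). It was not called when any mouse other than WT mouse 3 was left out (edgeR adjusted p = 0.0513 to 0.159), nor when scaled to library totals (edgeR adjusted p = 0.0660). The summed macrophage markers given above did not overlap between genotypes either, and their part in the *Dab2* value was not tested. Of those 11 markers, edgeR called 1, *Lyz2*, at 578 to 705 CPM in KIKO and 226 to 464 CPM in WT mice. The median log2 fold change of the 11 was 0.31, and *C1qa* lay at -0.05. An unadjusted p under 0.05 was found for 14 of the 58 genes, against 16.2% of all tested genes, so this count is not a result about these lists. DESeq2 called 4, among them *Dab2*, *Epn1* and *Insr*, against 3.93% of the genes it tested.

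By list, edgeR called 0 of 5 tested paralogs of the caveolar coat (median log2 fold change 0.17; 1 higher at an unadjusted p under 0.05; DESeq2 0), where *Cavin3* (0.42, adjusted p = 0.391) and *Ehd4* (0.26, adjusted p = 0.302) had the smallest p. The other endophilins and BAR proteins, which sense or bend membrane, had 0 of 11 called and a median of -0.27, with 8 below 0, 2 lower at an unadjusted p under 0.05 and 0 called by DESeq2. The smallest p there were those of *Arhgap26* (GRAF1, a component of clathrin-independent carriers), at -0.63 (adjusted p = 0.121), and *Fnbp1l*, at -0.53 (adjusted p = 0.216). Of fission factors and small GTPases, edgeR called 0 of 13 (median 0.04; 1 higher and 2 lower at an unadjusted p under 0.05; DESeq2 0), with *Dnm3*, a dynamin, at -0.92 (adjusted p = 0.0776) and *Arf1* at 0.43 (adjusted p = 0.128). The clathrin coat and its adaptors had 1 of 20 called, *Dab2*, and a median of -0.06, with *Epn1* at -0.36 (adjusted p = 0.114). Among 9 proteins known to reside in caveolae, edgeR called 0 (median -0.13; 1 higher and 3 lower at an unadjusted p under 0.05; DESeq2 2), with the insulin receptor *Insr* at -0.60 (adjusted p = 0.0628). Over all tested genes the median was -0.01, 51% lay below 0, and 7.13% were higher and 9.06% lower at an unadjusted p under 0.05.

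**Figure D5:**
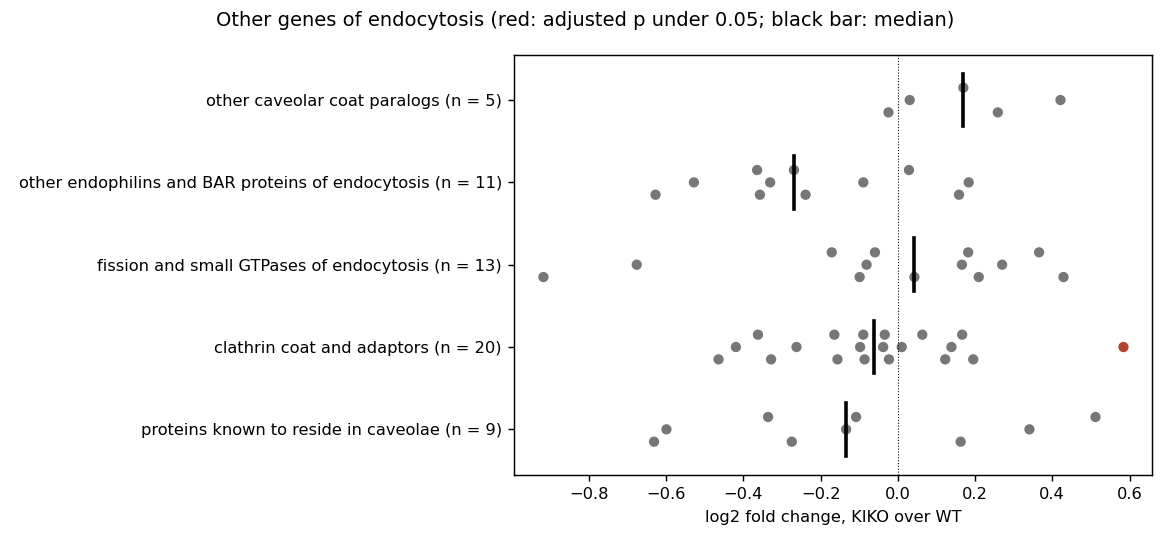
Log2 fold change of KIKO over WT mice (x axis) for the 58 tested genes of 5 other lists (rows, n tested in brackets), with the list's median as a black bar. The single red dot is *Dab2* (0.58, adjusted p under 0.05), and the medians lie between -0.27 and 0.17.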

How the data were processed

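RNA of vWAT from 4 KIKO and 4 WT mice was sequenced, with 1 library per mouse. The authors trimmed reads with Trimmomatic, aligned them to GRCm38 with HISAT2, quantified them with StringTie and used DESeq2; the annotation release is not given in the sources used here. The authors deposited raw counts per Ensembl gene, which are analysed here, and log2 values of counts divided by a size factor per library, which served only in an alternative. Totals were 2602189 to 3478539 counts, which limits the precision of genes with few reads.

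Counts were tested in R 4.3.3 with edgeR 4.0.16 (TMM, filterByExpr, quasi-likelihood test of genotype, Benjamini-Hochberg over 11080 genes, threshold 0.05) and levels are TMM-scaled CPM. Symbols and positions are from GENCODE M21, where 31011 of 31053 IDs matched. Members and lists were chosen with earlier results of these data known. All members are named, and of each other list every gene that passed or otherwise the 2 with the smallest p, besides the 5 genes most like *Sh3gl1* and *Cav1*; some genes that this rule names are not reported here. Steps were tested on simulated data. No same-genotype libraries were duplicates. Alternatives were other normalizations and filters, DESeq2 1.42.0, limma 3.58.1 (voom, and trend on the log2 values with pseudocounts of 1 and 8), a replicate block, leaving out each mouse and an offset for length and GC content (mgcv 1.9.3).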

Additional observations from a re-analysis of the deposited data

Results flagged for a closer look

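Among the 20 groups of 4 mice examined (10 genes in 2 genotypes), 2 held a mouse set apart from the others of its genotype by Dixon's test, and chance flags about 1 in 20 groups. *Cavin1* stood at 5726 CPM in WT mouse 3, against 4575 to 4760 CPM in the other WT mice. *Cavin2* stood at 2605 CPM in WT mouse 1, against 1755 to 1863 CPM in the other WT mice.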

How the results depend on the processing

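*Sh3gl1* was called in 13 of 19 alternatives (log2 fold change -1.83 to -1.39, adjusted p 1.9e-07 to 0.145) and *Flot2* in 12 of 19 (-0.77 to -0.64, adjusted p 2.87e-04 to 0.159); the other 8 members were called in none, and no direction of a called member turned. Calls over all genes moved more. The main count of 31 higher genes became 18 with library totals, 146 with no filter on low counts, 134 with DESeq2 and 14 with the length and GC offset. The main count of 44 lower genes became 236 with no filter, 126 with DESeq2, 17 with limma-voom, 20 and 28 with limma-trend at pseudocounts of 1 and 8, and 24 with the length and GC offset. Of the other pathway genes, 0 were called with library totals, 5 with no filter and 4 with DESeq2. Leaving out each mouse gave 0 to 285 higher genes, 0 to 369 lower genes, 0 to 2 members and 0 to 8 pathway genes, with 1328 to 2581 genes at an unadjusted p under 0.05; the highest counts came without WT mouse 3 (285, 369, 2 and 8). Scaling to library totals moved the median of all genes to -0.08 on the log2 scale. The labels do not say whether the replicate numbers pair the mice. Correlations of same-numbered mice were -0.152, -0.133, -0.113 and 0.0285, which cannot decide it, since differently numbered mice were not compared. A fit with a replicate block called 0 higher, 0 lower, 0 members and 0 pathway genes, with 1427 genes at an unadjusted p under 0.05. In that fit *Sh3gl1* was at -1.53 (edgeR adjusted p = 0.0536) and *Flot2* at -0.69 (edgeR adjusted p = 0.122). The depth limits most the genes with few reads, such as *Dnm3* and, of the members, *Sh3gl1* and *Pacsin2*.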
